A study of Mus musculus with 12 samples.

Results

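Mouse embryonic stem (ES) cells of the D3 line that had been differentiated for 8 days in the presence of an agent labelled NP were compared with undifferentiated cells of the same line. The comparison used the 3 arrays titled NP day8 and the 3 titled control day0, which are 6 of the 12 arrays of the series, and it covered 13067 genes, each read from the probe set with the highest mean over the 12 arrays. The remaining arrays are 3 of control day8, differentiated with no agent, and 3 of BPA day8, differentiated with an agent labelled BPA. The labels do not spell out NP or BPA and state no dose. Per the labels, the cells of each group were kept on MMC-treated embryonic fibroblast feeders, and they were differentiated as embryoid bodies. Whether the 3 arrays of a group come from separate cultures is not stated. Each p-value therefore reflects the spread among these arrays alone, which may be technical.

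ES cells correspond to the early epiblast, and they stay undifferentiated while a network of transcription factors around Pou5f1 (Oct4), Sox2 and Nanog is active. In an embryoid body the outer cells form primitive endoderm, which matures into visceral endoderm. This polarised, absorptive epithelium of the yolk sac secretes serum proteins such as alpha-fetoprotein. The inner cells pass through a primed epiblast state and a primitive streak state and then give rise to mesoderm, including beating heart muscle and vessels, and to other lineages.

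Values are log2 signals, so a difference of 1 is a 2-fold change. A gene is said to have risen or fallen when its adjusted p was under 0.05 (limma, Benjamini-Hochberg adjustment over 13067 genes, 2-sided). A log2 signal of 3.41 is taken as the background level, the highest of 36 readings of bacterial control probe sets. Where a group lay under that level its values were raised to it, and the change is given as "at least". The p-values come from the deposited values without this floor, so they do not test the bound.

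Between control day0 and NP day8, 4197 genes changed, 32.1% of those tested. Of these, 2641 rose, 20.2% of the genes tested, and 1556 fell, 11.9%. The median change over the tested genes was 0.10. The groups of 3 and 3 arrays did not overlap, in either direction, for 6216 genes (47.6%). Control day8 against the same control day0 arrays gave 6365 changed genes (48.7%), with 3692 higher (28.3%) and 2673 lower (20.5%). NP day8 differed from control day8 in 1852 genes (14.2%), 1032 higher (7.9%) and 820 lower (6.28%). These comparisons share arrays, so their values are set side by side and not correlated. The share of probe sets above the background level was 58.2% to 62.2% on the 12 arrays. The difference between 3' and 5' control probe sets of actin, a measure of RNA integrity, was 1.22 to 1.36 at day 0, 1.27 to 1.42 in control day8, 1.46 to 1.64 with NP and 1.52 to 1.72 with BPA, so it was higher with both agents, and its part in the results was not tested. The same difference for Gapdh overlapped between the groups, at 0.20 to 0.35 at day 0, 0.23 to 0.31 in control day8, 0.31 to 0.35 with NP and 0.22 to 0.44 with BPA. Along the first principal component, which held 39.5% of the variance, the control day0 arrays lay between -91 and -78.1, the NP arrays at 28.9, 15.2 and 8.6, the BPA arrays between 12.5 and 15.1 and the control day8 arrays between 51.1 and 56.4.

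Genes of the yolk sac endoderm were among the largest rises under NP. Of the 15 largest rises by the naming rule, Afp, Ttr, Rbp4, Apob, Apom, Apoa1, Apoc2 and Ctsh are on the list of yolk sac serum proteins and apolipoproteins. The lists of extraembryonic endoderm factors, visceral endoderm absorptive epithelium and definitive endoderm and gut held no tested member that fell. The plot of list means by array shows where each list lay in the 4 groups.

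**Figure D1:**
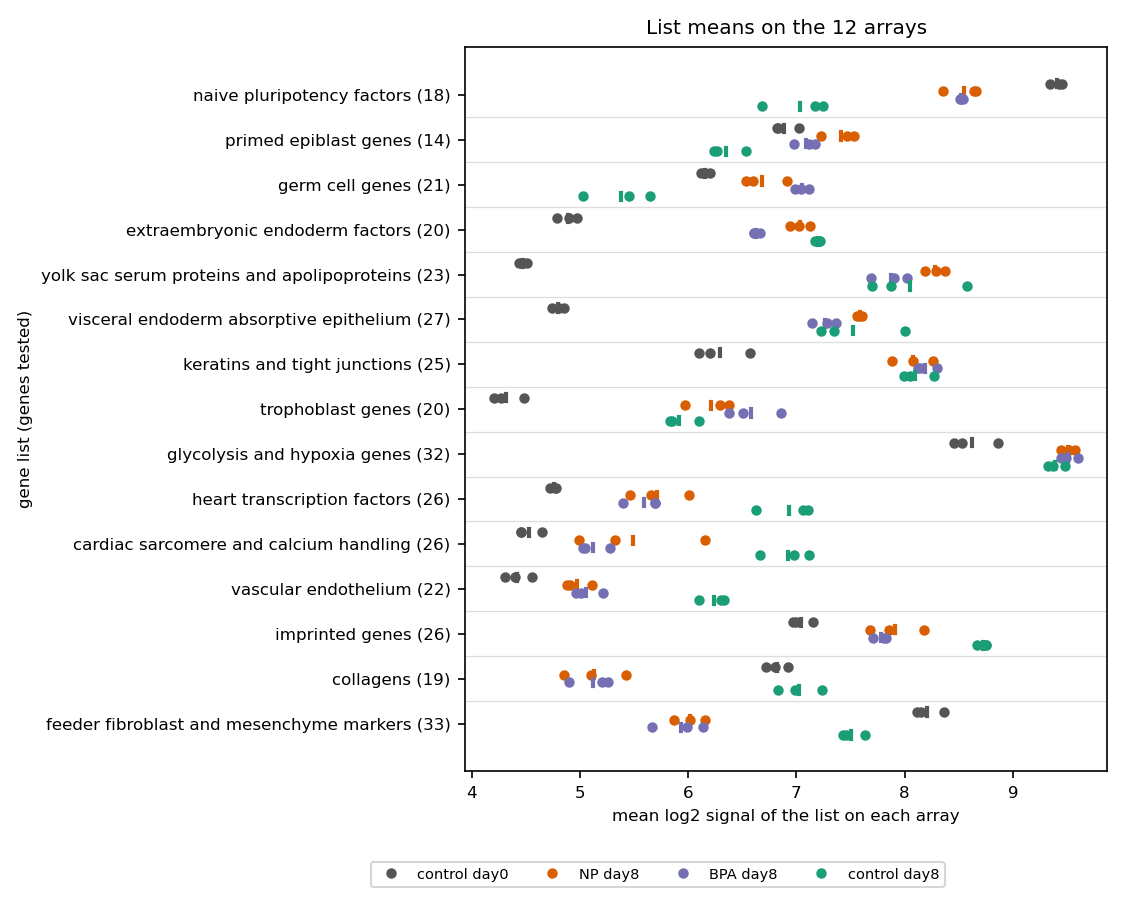
Mean log2 signal (horizontal axis) of 15 gene lists (vertical axis, with the number of genes tested) on each of the 12 arrays, with 1 point per array and a vertical tick at the mean of each group. NP day8 lies with control day8 for the serum protein, absorptive epithelium, keratin and hypoxia lists, and slightly below it for the extraembryonic endoderm factors. It lies between control day0 and control day8 for the heart and imprinted lists, and below both for the collagen and feeder lists.

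Promoter sequences of Foxa2 and Hnf4a, transcription factors of the endoderm, and of Afp, whose product is the main serum protein of the yolk sac, are shown because these genes carried large rises and held motifs of endoderm factors. Each is the 250 bases before a start site, 5′ to 3′ on the gene's strand, from RefSeq on assembly GRCm38.p6. The table holds 3 starts for Foxa2 and 2 for Hnf4a, and the start with the most matches is shown. The other Foxa2 starts had 0 matches, and the other Hnf4a start had 1 GATA match and 0 HNF1 matches. Capitals mark matches, on either strand, to a core motif bound by GATA factors, spelled AGATAA, or to a core motif of HNF1 factors, spelled GTTAAT. A core motif of forkhead factors, spelled TGTTTAC, was searched as well. Foxa2 lies at chr2:148045465-148045714 on the minus strand, Hnf4a at chr2:163546905-163547154 on the plus strand and Afp at chr5:90490464-90490713 on the plus strand.
Foxa2: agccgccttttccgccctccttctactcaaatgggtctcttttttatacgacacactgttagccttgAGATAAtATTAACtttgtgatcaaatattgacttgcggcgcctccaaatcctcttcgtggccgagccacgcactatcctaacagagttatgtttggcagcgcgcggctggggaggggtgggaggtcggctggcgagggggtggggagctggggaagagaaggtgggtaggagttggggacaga
Hnf4a: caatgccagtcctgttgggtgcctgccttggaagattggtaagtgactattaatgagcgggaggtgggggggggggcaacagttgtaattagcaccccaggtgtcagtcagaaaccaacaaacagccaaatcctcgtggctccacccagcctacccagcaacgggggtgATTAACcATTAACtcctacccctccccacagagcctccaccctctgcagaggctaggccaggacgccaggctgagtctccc
Afp: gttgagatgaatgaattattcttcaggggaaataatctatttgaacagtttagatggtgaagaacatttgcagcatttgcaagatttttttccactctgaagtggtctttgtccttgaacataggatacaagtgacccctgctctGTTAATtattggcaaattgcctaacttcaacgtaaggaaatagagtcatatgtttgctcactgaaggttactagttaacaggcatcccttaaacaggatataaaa
In the Foxa2 sequence an AGATAA match is followed after a single base by a GTTAAT match on the other strand. In the Hnf4a sequence 2 GTTAAT matches on the other strand stand side by side, and the Afp sequence holds 1 match. Among all 32851 promoters of the table, 9.99% held AGATAA, 6.43% held GTTAAT and 3.17% held TGTTTAC. Among the 62 promoters matched to 46 of the 58 genes that rose on the endoderm factor, serum protein and absorptive epithelium lists, the shares were 11.3%, 12.9% and 6.45%. A match is a description of these letters and shows no binding.

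Serum proteins of the yolk sac rose by large amounts. Of 32 listed genes 30 were on the array and 23 passed the filter on low values. The filter used the mean over the 12 arrays, so genes low at day 0 could pass through their day8 levels. At day 0, 9 of the 23 lay above the background level on all 3 arrays and 5 under it on all 3. For such low genes a fall could hardly be seen, here and on the other lists of genes low at day 0. Of the 23 genes 19 rose and 0 fell, against 20.2% and 11.9% of all genes. Their median change was 4.67, or 4.37 with values under the background level raised to it, beside 0.10 for all genes. Afp, which encodes alpha-fetoprotein, read 2.87, 0.20 and -0.51 on the control day0 arrays and 12.46, 12.34 and 12.44 on the NP arrays. The groups lay far apart, with control day0 under the background level on each array, and the rise was at least 9.01 (at least 516-fold, adjusted p = 1.13e-05). Ttr, the transthyretin carrier of thyroid hormone, rose by at least 8.53. Rbp4, the plasma carrier of retinol, read 4.61, 4.73 and 5.31 at day 0 and 11.48, 11.09 and 11.03 with NP, a rise of 6.32 ± 0.28 (SE). Apob, the core protein of lipoproteins, rose by at least 6.23, and Apoa1 and Apoc2, further lipoprotein components, by at least 5.78 and by 5.71 ± 0.43. The members that missed the threshold included F5 (change 0.29 ± 0.55) and Proc (mean under the background level in both groups), which encode coagulation proteins.

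The factors that specify extraembryonic endoderm rose as well. Of 22 listed genes 20 were tested, 17 rose and 0 fell, with a median change of 2.28 (1.89 with values under the background level raised to it). Sox17, a transcription factor of the endoderm, read 3.0, 2.64 and 3.84 at day 0 and 9.23, 9.31 and 9.14 with NP. The groups did not overlap, and the rise was at least 5.68 (adjusted p = 3.57e-06). Cited1, a transcriptional coactivator, rose by at least 4.91, and Foxa2 rose by 3.95 ± 0.35. Hnf4a, which drives secretory genes of the visceral endoderm, read 0.96, 1.24 and 2.09 at day 0 and 6.37, 6.15 and 6.42 with NP, a rise of at least 2.91. Gata6, a master regulator of primitive endoderm that also acts in heart mesoderm, read 4.99, 5.38 and 5.27 at day 0 and 7.76, 7.84 and 8.25 with NP. It rose by 2.74 ± 0.20 (adjusted p = 2.42e-05), and no NP array overlapped day 0.

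Genes of the absorptive surface of the visceral endoderm rose with them. Of 31 listed genes 27 were tested, 24 rose and 0 fell, with a median change of 3.02 (2.73 with the background floor). S100g, a calcium-binding protein of absorptive epithelia, read -1.22, -1.58 and -1.03 at day 0 and 10.46, 10.10 and 9.43 with NP, a rise of at least 6.59 (adjusted p = 6.05e-06). Spink1, a secreted protease inhibitor, rose by 5.23 ± 0.38. Dab2, the endocytic adaptor of the apical membrane, read 5.97, 6.0 and 6.15 at day 0 and 10.60, 10.46 and 10.53 with NP, a rise of 4.49 ± 0.22. Cubn, the endocytic receptor cubilin, rose by 4.67 ± 0.25, and Car4, a carbonic anhydrase at the cell surface, by 4.92 ± 0.32. The genes Cdhr5 and Mfsd2a missed the threshold, with changes of 0.50 ± 0.28 and 0.52 ± 0.35.

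The endoderm of the gut and the basement membrane genes gave further rises. On the definitive endoderm and gut list 15 of 17 tested genes (20 listed) rose and 0 fell, with a median change of 2.82. Krt19, an intermediate filament of simple epithelia, read 3.91, 4.13 and 5.04 at day 0 and 9.96, 9.83 and 9.12 with NP, a rise of 5.28 ± 0.34. Clic6, a chloride channel protein, rose by 6.15 ± 0.34. Cxcr4, a receptor used to mark definitive endoderm, and Shh, a ligand of gut endoderm, did not pass the test, with changes of 0.92 ± 0.54 and 1.04 ± 0.77. Genes such as Krt19, which is also on the list of keratins, are expressed by several epithelia, and these epithelia cannot be told apart by them. On the parietal endoderm and basement membrane list, 14 of 20 tested genes rose and 1 fell. Srgn, a proteoglycan core protein, rose by 4.95 ± 0.35 and Pth1r, the receptor for parathyroid hormone-related protein, by at least 4.36. Thbd, which encodes thrombomodulin, was the member that fell, by 1.38 ± 0.29 on the log2 scale.

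With NP against control day8, 0 of 23 serum protein genes and 0 of 27 absorptive epithelium genes passed the threshold in either direction, where 14.2% of all genes did. By limma, 2 of the 23 and 1 of the 27 had an unadjusted p under 0.05. The median differences were 0.22 and 0.02. A miss does not show equal levels, so intervals are given. For 6 of the 23 and 11 of the 27 genes the whole 95% interval lay within 2-fold, and the ends reached from -2.31 to 3.03 on the first list and from -2.82 to 2.65 on the second. Afp differed by 1.16, with an interval of -0.46 to 2.78, and Dab2 by -0.11, with an interval of -0.60 to 0.37. The serum protein list averaged 8.37, 8.19 and 8.29 on the NP arrays and 7.87, 7.70 and 8.58 on the control day8 arrays, so the NP values fell inside the control range. The other endoderm lists held differences. Of the 20 extraembryonic endoderm factors 2 were higher and 4 lower with NP than in control day8, and their mean was 7.13, 6.94 and 7.02 on the NP arrays and 7.17, 7.21 and 7.22 in control day8, with no overlap. The lower factors were Gata6, Foxa1, Nr2f2 and Pdgfra, and the higher ones Otx2 and Sall4, of which Foxa1 and Nr2f2 are named after their values were seen. For extraembryonic endoderm factors the count of lower genes was 1 without control day8 array 1 or 2 or NP array 2, and 2 without NP array 3. On the parietal endoderm and basement membrane list 4 genes were higher and 1 lower, and 0 were higher without control day8 array 1 or 2 or NP array 2 or 3. On the definitive endoderm and gut list 2 of 17 were higher and 0 lower. For Gata6, with control day8 at 9.75, 9.52 and 9.12, the level with NP was lower by 1.51 on the log2 scale (difference -1.51 ± 0.20, adjusted p = 0.00191), and the call held without any single array.

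**Figure D2:**
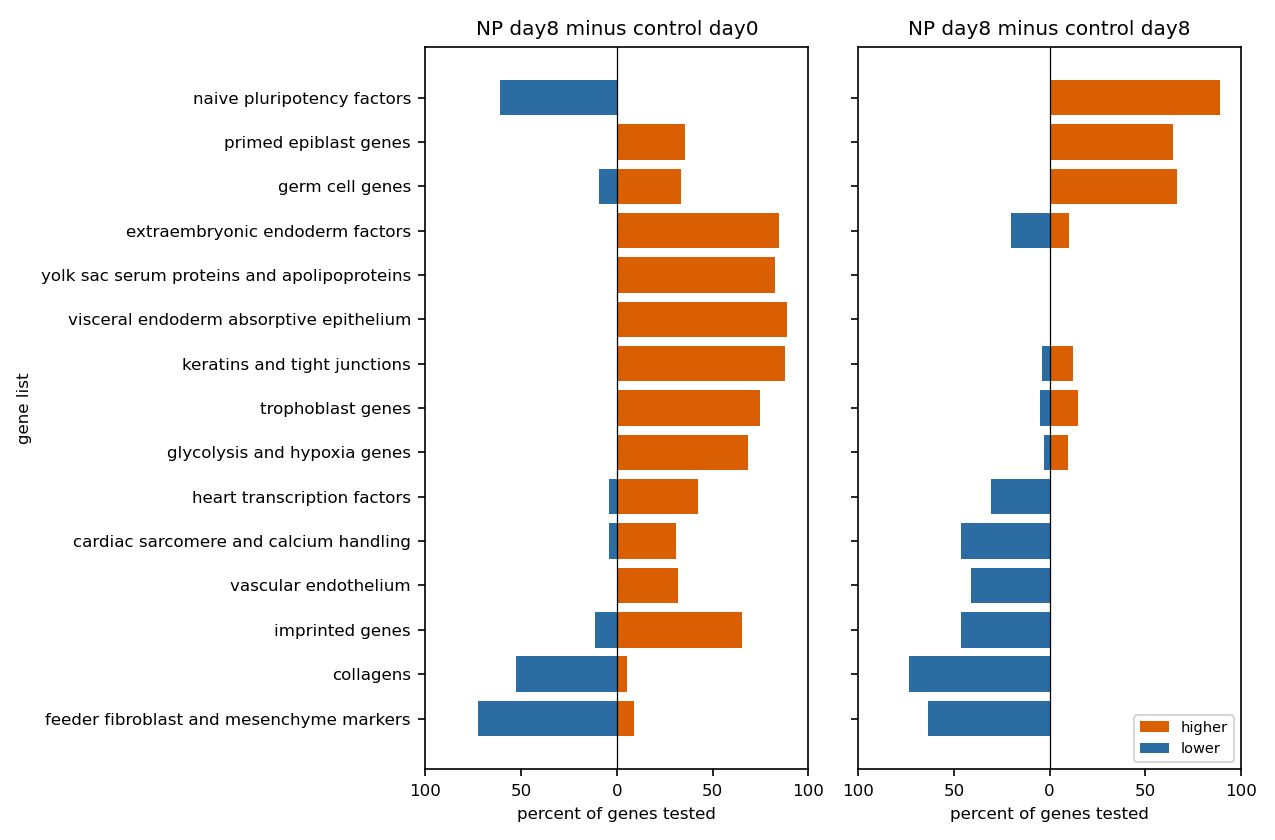
Percent of the genes tested (horizontal axis) on each of 15 gene lists (vertical axis) that were higher (to the right) or lower (to the left) at an adjusted p under 0.05, for NP day8 against control day0 (left) and against control day8 (right). Both panels share the NP arrays. The serum protein and absorptive epithelium lists have 19 and 24 higher genes in the left panel and 0 in the right panel.

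Genes of epithelial junctions and of trophoblast rose with the endoderm. Of 28 listed keratins and tight junction genes, 25 were tested, 22 rose and 0 fell, with a median change of 1.62. Krt18, a keratin of simple epithelia, read 7.33, 7.54 and 8.11 at day 0 and 12.54, 12.27 and 11.65 with NP, a rise of 4.49 ± 0.26. Krt7 rose by 4.19 ± 0.31, Cldn6, a claudin of early epithelia, by 2.40 ± 0.22, and Epcam, an epithelial adhesion protein, by 0.66 ± 0.14. Cdh1, the epithelial cadherin already present in ES cells, read 11.13, 11.15 and 11.22 at day 0 and 11.06, 11.07 and 11.08 with NP. Its change of -0.09 had an interval of -0.30 to 0.11. Against control day8, Cdh1 was higher with NP by 0.74 ± 0.09 (adjusted p = 0.0014), while Krt18 differed by -0.29 with an interval of -0.86 to 0.29. Of 23 trophoblast genes 20 were tested, 15 rose and 0 fell, with a median change of 2.30 (1.54 with the background floor). Plac1, a placental membrane protein, read 2.59, 4.62 and 3.66 at day 0 and 8.97, 8.96 and 7.84 with NP, a rise of 4.97 ± 0.47. Plet1 rose by 4.04 ± 0.33, and Gata3 and Ascl2, transcription factors of the trophoblast, by at least 2.93 and at least 2.50. The third NP array was the lowest of the 3 for Krt19, Krt18, Krt7, Plac1, Plet1 and Gata3.

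Genes of the placenta stood among the 15 largest rises. Rhox6 and Rhox9, homeobox genes of the Rhox cluster that are expressed in placenta and germ cells, rose by 5.47 ± 0.42 and 5.68 ± 0.39. Nrk, a kinase of the trophoblast, read 5.09, 4.46 and 4.72 at day 0 and 10.69, 10.61 and 9.62 with NP, a rise of 5.55 ± 0.28. For none of these did NP differ from control day8 past the threshold, with differences of 0.28 ± 0.42, 0.82 ± 0.39 and -0.06 ± 0.28.

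The pluripotency network fell only in part. All 18 listed naive pluripotency factors were tested. Of these 11 fell and 0 rose, with a median change of -0.88, whereas in control day8 all 18 fell, with a median of -2.27. Without the NP array numbered 1 the count of falls was 7. Zfp42, a marker of the naive state, read 11.83, 11.54 and 11.87 at day 0, 10.19, 10.60 and 10.69 with NP, and 7.73, 8.06 and 8.64 in control day8. The 3 groups did not overlap, and Zfp42 fell by 1.26 on the log2 scale with NP (change -1.26 ± 0.22, adjusted p = 0.00268). Esrrb and Lefty1, an orphan receptor of the network and an inhibitor of Nodal signalling, fell by 1.46 and 1.65 (SE 0.20 and 0.27). Pou5f1 read 11.54, 11.48 and 11.32 at day 0, 9.94, 10.52 and 10.97 with NP, and 6.81, 7.63 and 8.49 in control day8. Its change of -0.97 ± 0.38 missed the threshold (adjusted p = 0.0769), and so did those of Nanog (-0.48, interval -1.10 to 0.15) and Sox2 (-0.21, interval -0.54 to 0.11). These intervals exclude falls of the size seen in control day8, which were 2.80 for Nanog and 1.68 for Sox2 on the log2 scale.

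Compared with control day8, 16 of the 18 naive pluripotency factors were higher with NP and 0 were lower, and 10 were higher when only these 6 arrays were fitted. Pou5f1 was higher by 2.83 ± 0.38 (adjusted p = 0.00196) and Nanog by 2.32 ± 0.28. Of the 25 tested ES cell markers (27 listed), 11 fell against day 0, and 21 were higher than in control day8. The count of falls was 6 to 9 with 1 array left out, lowest without control day0 array 2, NP array 1 or NP array 2. The largest differences from control day8 included Dppa2 (3.65 ± 0.34), Tdgf1 (3.25 ± 0.31), the co-receptor Cripto, Eras (3.25 ± 0.26), a Ras family gene of ES cells, and Fgf4 (2.86 ± 0.39). Dppa2, Tdgf1, Eras and Fgf4 did not pass the threshold against day 0, with changes of -0.53, -0.69, -0.42 and -0.51. Here and for every lineage list below, fewer cells of a type and less RNA per cell cannot be told apart in bulk RNA.

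Some genes of the primed epiblast and the germ line were higher with NP than in both control groups. On the primed epiblast list 5 of 14 tested genes (17 listed) rose against day 0 and 0 fell. In control day8, 3 rose and 7 fell. Fgf5, the growth factor that marks the primed state, read 5.99, 5.79 and 6.05 at day 0, 6.93, 6.99 and 7.78 with NP, and 4.27, 5.06 and 5.27 in control day8. The NP arrays were the highest of the 3 groups without overlap, and Fgf5 rose by 1.29 ± 0.30 from day 0 (adjusted p = 0.00996). Otx2, a homeobox factor of the primed epiblast, rose by 1.72 ± 0.25, and Pou3f1, a POU factor of the same state, by 1.10 ± 0.23. On the BPA arrays Fgf5 read 6.72, 6.21 and 6.14. Dnmt3b, the de novo methyltransferase of the epiblast, kept a change of -0.14 (interval -0.47 to 0.18) and was higher than in control day8 by 1.47 ± 0.14.

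Of 21 tested germ cell genes (25 listed), 7 rose and 2 fell against day 0, while 14 were higher and 0 lower than in control day8. Over all genes 20.2% rose and 11.9% fell against day 0, and 7.9% were higher and 6.28% lower than in control day8. With BPA 9 of the 21 germ cell genes rose and 0 fell against day 0. The list averaged 6.99, 7.04 and 7.12 on the BPA arrays and 6.60, 6.91 and 6.53 on the NP arrays. The largest change on the list with NP was the 5.68 of Rhox9, which is also expressed in placenta. Rhox5, a homeobox gene of the reproductive tract and the extraembryonic tissues, rose by 1.80 ± 0.22. Stra8, which acts at the entry into meiosis, read 5.81, 5.92 and 6.08 at day 0, 7.27, 7.70 and 7.11 with NP, and 4.23, 4.85 and 5.04 in control day8. The groups did not overlap, and Stra8 rose by 1.42 ± 0.31 (adjusted p = 0.00723). Dazl, which binds RNA in germ cells, rose by 0.99 ± 0.28 (adjusted p = 0.0244), but the call was lost without control day0 array 1 or 2 or NP array 2, with an adjusted p up to 0.0863. Sycp3, of the synaptonemal complex, rose by 0.99 ± 0.25, and its adjusted p was 0.0525 without control day0 array 2. Stra8, Dazl and Sycp3 were chosen after their values were seen. Ddx4, an RNA helicase of germ cells, was called lower than at day 0, with changes of -0.95 to -0.58 when 1 array was left out. That call was lost without control day0 array 1 or 3 or NP array 1. The lowest change on the list was -1.9. Without NP array 2 the count of germ cell genes higher than in control day8 was 9, and it was 5 for germ cell genes when only these 6 arrays were fitted.

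**Figure D3:**
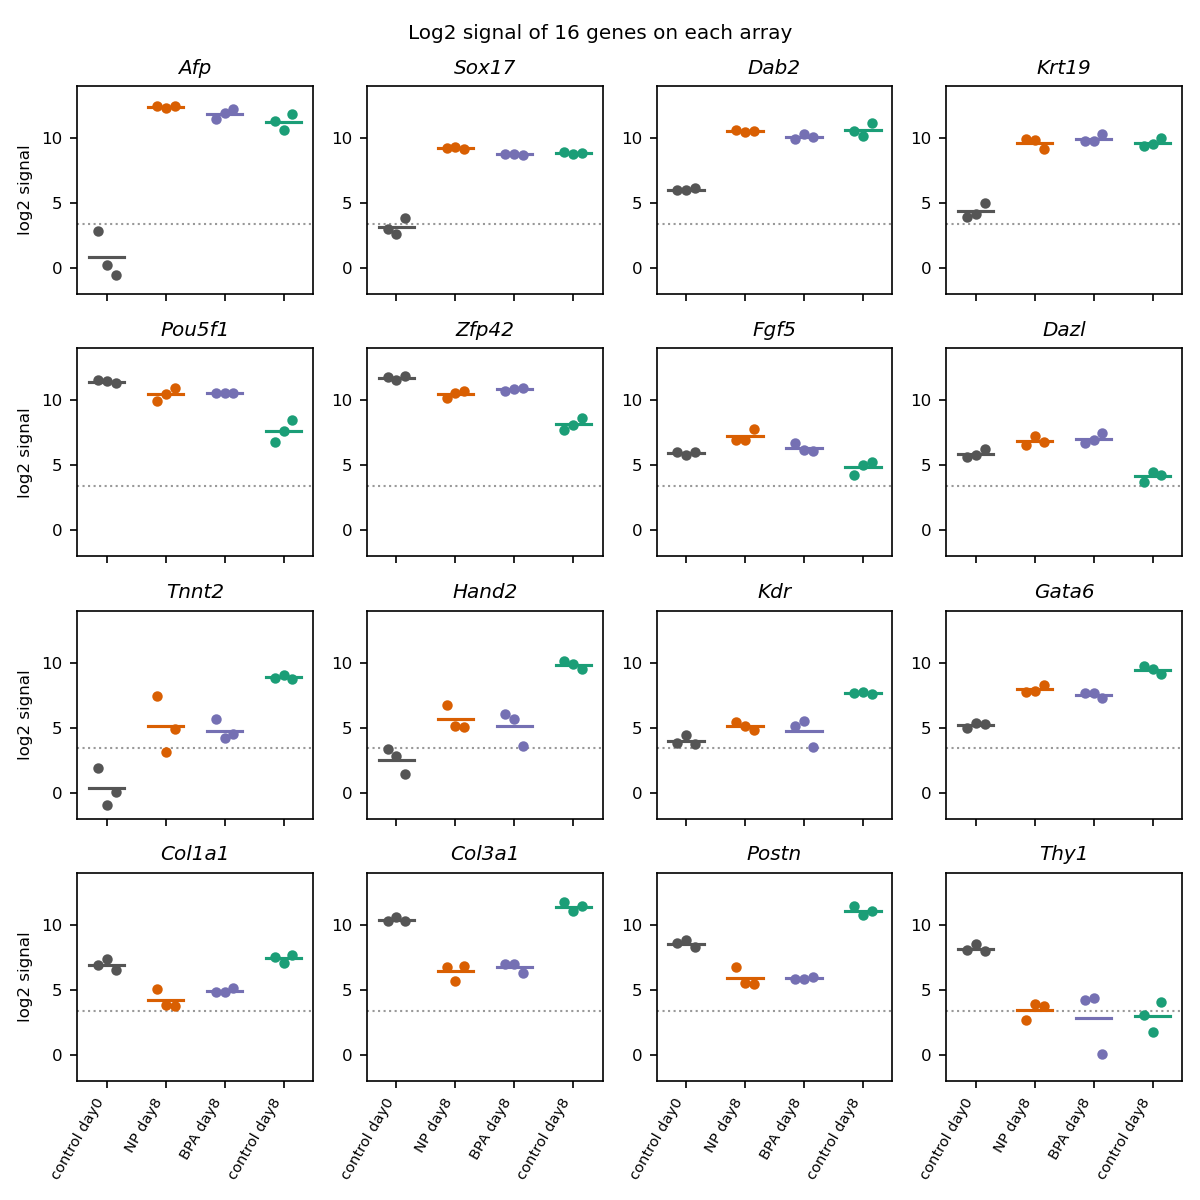
Log2 signal (vertical axis) of 16 genes on each array (points) in the 4 groups (horizontal axis), with the group mean as a bar and the background level of 3.41 as a dotted line. Afp, Sox17, Dab2 and Krt19 are high in each of the day8 groups, Pou5f1 and Zfp42 stay above control day8 with NP, and Col1a1, Col3a1 and Postn are lower with NP than in both control groups.

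Part of the heart genes rose. Of 27 listed heart transcription factors 26 were tested, and 11 rose and 1 fell from day 0 with NP, against 19 and 2 in control day8. The medians were 0.98 and 3.0 (0.77 and 1.87 with the background floor). Over all genes 20.2% rose and 11.9% fell with NP, against 28.3% and 20.5% in control day8. Hand2, a factor of the developing heart, read 3.38, 2.80 and 1.40 at day 0, 6.77, 5.11 and 5.09 with NP, and 10.12, 9.88 and 9.53 in control day8. The 3 groups did not overlap, and the rise with NP was at least 2.25 (adjusted p = 0.00996). Isl1, a factor of cardiac progenitors, rose by 3.15 ± 0.47 and Irx3 by 2.52 ± 0.42, while Srf, which drives muscle genes, fell by 0.77 on the log2 scale (SE 0.16). Against control day8, 8 factors were lower with NP and 0 higher, and Hand2 was lower by 4.19 on the log2 scale (difference -4.19 ± 0.73, adjusted p = 0.00682). This count was 3 without control day8 array 1 or NP array 3, and 4 without control day8 array 2 or NP array 2. For heart transcription factors it was 15 with values under the background level raised to it, an alternative chosen after seeing the data. Hey2 was lower by 1.64 (difference -1.64 ± 0.26) in this comparison.

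Of 30 sarcomere and calcium handling genes of the heart 26 were tested, and 8 rose and 1 fell with NP, against 18 and 1 in control day8. The shares of all genes that rose were 20.2% with NP and 28.3% in control day8. With the background floor the list averaged 6.16, 4.99 and 5.32 on the NP arrays and 4.46, 4.46 and 4.65 at day 0. NP array 1 was thus the highest. Tnnt2, the cardiac troponin T, read 1.91, -0.94 and 0.03 at day 0, 7.45, 3.12 and 4.90 with NP, and 8.79, 9.09 and 8.76 in control day8. The first NP array was much closer to control day8 than the other NP arrays, and Tnnt2 rose by at least 1.84 (adjusted p = 0.00635 by limma, on values without the floor). NP array 2 lay under the background level, as did the control day0 arrays. Myh7, the slow myosin heavy chain, read 8.29, 5.21 and 5.47 with NP and rose by at least 2.92, and Myl4, an atrial light chain, read 8.55, 6.96 and 6.27 and rose by 2.81 ± 0.46. Myl7 read 9.05, 4.96 and 6.35 with NP against 4.11, 4.91 and 4.58 at day 0, and its change of 2.26 ± 0.88 missed the threshold. Myh6, the alpha myosin heavy chain, read 5.82, 4.38 and 4.54 with NP and 4.72, 5.45 and 5.22 at day 0, which overlapped, and it was lower than control day8 by 2.87 (difference -2.87 ± 0.44, adjusted p = 0.00367). Of the 26 genes, 12 were lower with NP than in control day8 and 0 higher. For cardiac sarcomere and calcium handling this count was 2 without control day8 array 1 or 2, or without NP array 2 or 3, and 6 without control day8 array 3. Tnnt2 itself lost its call against control day8 without any 1 of these 5 arrays, with an adjusted p up to 0.12.

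Vessel genes rose in part, and blood genes gave few calls. On the vascular endothelium list 7 of 22 tested genes (26 listed) rose with NP and 0 fell, against 18 and 0 in control day8. Kdr, the main receptor for vascular endothelial growth factor, read 3.80, 4.40 and 3.73 at day 0, 5.40, 5.11 and 4.85 with NP, and 7.66, 7.74 and 7.57 in control day8. The groups did not overlap, but the change of 1.14 ± 0.44 from day 0 missed the threshold (adjusted p = 0.0765), and Kdr was lower than in control day8 by 2.54 (difference -2.54 ± 0.44, adjusted p = 0.00677). Cdh5, the cadherin of endothelial junctions, rose by at least 2.45 and Ramp2, a receptor accessory protein of vessels, by 1.79 ± 0.25. Tek and Flt1, endothelial receptor kinases, rose by 1.0 ± 0.19 and 0.90 ± 0.17 with NP, where their changes in control day8 were 2.47 and 1.87. On vascular endothelium, 9 genes were lower with NP than in control day8 and 0 higher, 4 without control day8 array 1 and 5 without control day8 array 2 or NP array 2. Among the 9 tested blood genes 2 rose and 1 fell with NP, against 5 and 0 in control day8. Of all genes 20.2% rose and 11.9% fell with NP, and the blood counts are too small to set apart from those shares. The embryonic globin Hbb-bh1 read 8.01, 4.24 and 1.44 with NP against 3.57, 2.52 and 3.82 at day 0, a spread that left no call. On the primitive streak and nascent mesoderm list 6 of 15 tested genes rose (22 listed), but only 3 did without NP array 1 or 2. On the primitive streak and nascent mesoderm list 2 rose when only the 6 arrays of both groups were fitted.

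**Figure D4:**
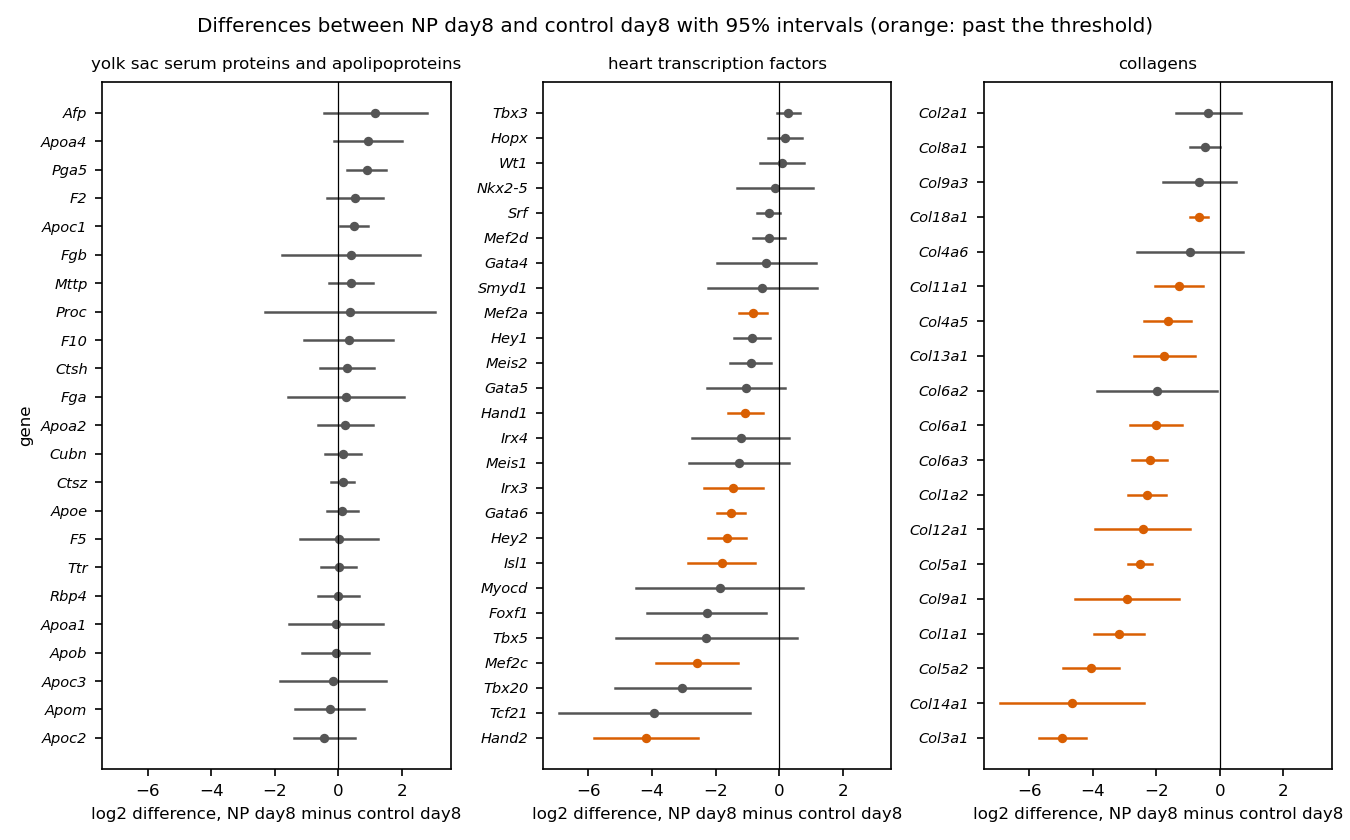
Difference in log2 signal between NP day8 and control day8 (horizontal axis) for each gene (vertical axis) of the serum protein, heart transcription factor and collagen lists, with 95% intervals as lines and genes past the threshold in orange. None of 23 serum protein genes, 8 of 26 heart factors and 14 of 19 collagens are orange, and the orange genes are lower with NP.

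Genes of fibroblasts and of the collagen matrix were among the largest falls. Of 34 listed feeder fibroblast and mesenchyme markers 33 were tested, and 24 fell and 3 rose against day 0, with a median change of -2.53. The summed signal of the 33 genes was 21966 to 25532 on the control day0 arrays, 5694 to 7627 with NP, 5201 to 6656 with BPA and 15585 to 20151 in control day8. All 33 genes lay above the background level on the 3 control day0 arrays, and 2 lay under it on the 3 NP arrays. Feeder fibroblasts were part of the day 0 cultures by the labels, and the share of these falls that comes from feeder cells was not tested. The same holds for the falls of collagens, smooth muscle genes and Grem1 given below. Lox, which cross-links collagen, read 10.06, 10.15 and 9.55 at day 0 and 3.15, 4.96 and 4.72 with NP, a fall of 5.64 on the log2 scale (change -5.64 ± 0.43, adjusted p = 2.79e-05). S100a4, which binds calcium and marks fibroblasts, dropped by at least 6.37 (change -6.37 with the background floor). Thy1, a surface marker of fibroblasts, read 8.06, 8.51 and 7.98 at day 0, 2.73, 3.93 and 3.80 with NP, and 3.11, 1.73 and 4.06 in control day8, so that the day8 groups overlapped near the background level. The matrix genes Bgn (-4.85 ± 0.36), Fbln2 (-4.66 ± 0.29), Tnc (-4.64 ± 0.45) and Thbs1 (-4.46 ± 0.23) were also among the 15 largest falls, as were Ptgs2 (-4.58 ± 0.49), a prostaglandin synthase, and Inhba (-4.51 ± 0.65), a subunit of activin. The members that rose included Igfbp5, an IGF-binding protein, by 4.28 ± 0.57 and Pdgfra, a receptor of mesenchyme that primitive endoderm also expresses, by 2.50 ± 0.21.

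Collagens fell with NP and rose in part in control day8. Of 19 tested collagens (20 listed), 10 fell and 1 rose against day 0 with NP, whereas 5 fell and 8 rose in control day8. The medians were -2.21 and 0.55. Col3a1, a fibrillar collagen, read 10.27, 10.59 and 10.27 at day 0, 6.80, 5.72 and 6.84 with NP, and 11.73, 11.06 and 11.45 in control day8. The NP arrays were the lowest without overlap, and Col3a1 fell by 3.92 on the log2 scale (change -3.92 ± 0.33, adjusted p = 4.44e-05). Col1a1 read 6.90, 7.35 and 6.52 at day 0, 5.10, 3.82 and 3.80 with NP, and 7.52, 7.09 and 7.66 in control day8, a fall of 2.68 (change -2.68 ± 0.35). Col5a2 fell by 5.09 and Col6a3 by 4.59 (SE 0.39 and 0.24). Col2a1, the collagen of cartilage and early epithelia, was the collagen that rose, by 2.17 ± 0.45. Postn, a matrix protein of mesenchyme, read 8.58, 8.81 and 8.31 at day 0, 6.77, 5.54 and 5.48 with NP and 11.44, 10.75 and 11.05 in control day8, a fall of 2.64 (change -2.64 ± 0.32). Against control day8, 14 of 19 collagens were lower with NP and 0 higher. The difference was -4.96 ± 0.33 for Col3a1, -5.15 ± 0.32 for Postn and -3.18 ± 0.35 for Col1a1 (adjusted p = 0.000218, 0.000218 and 0.00103). For collagens this count was 8 without control day8 array 1 and 9 without NP array 2 or 3, and the calls of Col3a1, Postn and Col1a1 held in each case. Smooth muscle genes gave 7 falls and 1 rise among 12 tested (14 listed), 4 falls without control day0 array 1 or 2, and 3 without NP array 3. Acta2, the smooth muscle actin, fell by 1.91 (change -1.91 ± 0.45) and Tagln by 1.70 (change -1.70 ± 0.28).

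Imprinted genes, many of which are expressed in mesoderm and yolk sac and control growth, rose in part with NP. Of 26 tested genes (31 listed) 17 rose and 3 fell, with a median change of 0.92, beside 16, 2 and 1.52 in control day8. Igf2, a fetal growth factor, read 7.24, 7.51 and 8.13 at day 0, 12.09, 11.79 and 10.68 with NP, and 13.06, 12.81 and 12.95 in control day8, a rise of 3.89 ± 0.35. Dlk1, a Notch-related membrane protein, read 4.21, 4.34 and 5.54 at day 0, 8.01, 6.64 and 6.86 with NP, and 10.96, 10.41 and 10.40 in control day8. The groups did not overlap, Dlk1 rose by 2.47 ± 0.45, and it was lower than in control day8 by 3.41 (difference -3.41 ± 0.45, adjusted p = 0.00196). On the list of imprinted genes 12 were lower with NP than in control day8 and 0 higher, 7 without control day8 array 1, NP array 2 or NP array 3. Igf2 (difference -1.42 ± 0.35) lost its call without any control day8 array and without NP array 2 or 3, with an adjusted p up to 0.0859.

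Signalling genes changed in both directions, and their counts are read against the 20.2% of all genes that rose and the 11.9% that fell. Of 38 tested genes of the TGF-beta and BMP pathway (40 listed) 18 rose and 4 fell. On the TGF-beta and BMP pathway list 11 rose when only the 6 arrays of both groups were fitted. Bmp2, a ligand, read 2.75, 3.87 and 4.18 at day 0 and 7.98, 7.30 and 6.92 with NP, a rise of 3.80 ± 0.37. Bmp4, the ligand that induces mesoderm, rose by 0.97 ± 0.19 with NP, and by 2.46 in control day8. Id2, a target of BMP signals, rose by 1.81 ± 0.23 and the co-receptor Tgfbr3 by 1.85 ± 0.21, while Inhbb, another activin subunit, fell by 2.06 (change -2.06 ± 0.31) and Grem1, a BMP antagonist, by 2.18 (change -2.18 ± 0.45). On the Wnt pathway list 8 of 34 tested genes (39 listed) rose and 2 fell, against 23 and 3 in control day8. The rises with NP lie near the share of all genes. In control day8, 28.3% of all genes rose and 20.5% fell. The secreted inhibitors Frzb and Dkk1 rose by 3.75 ± 0.24 and 2.87 ± 0.37, the receptor Ror1 rose by 1.96 ± 0.25, and the receptor Fzd5 fell by 1.01 (change -1.01 ± 0.14). With a pseudocount of 64 the Wnt pathway had 15 rises in place of 8. On the FGF pathway list 7 of 20 tested genes rose and 3 fell (1 without control day0 array 1, 2 or 3 or NP array 1), among them the receptor Fgfr4, with a rise of at least 1.55, and the ligand Fgf17, with a fall of 1.46 (change -1.46 ± 0.23). Cyp26a1, which breaks down retinoic acid, read 3.10, 2.05 and 4.72 at day 0 and 8.64, 8.64 and 8.83 with NP, a rise of at least 4.86.

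Metabolic and growth genes changed as well. Over all genes 20.2% rose and 11.9% fell with NP. On the glycolysis and hypoxia list 22 of 32 tested genes (36 listed) rose and 0 fell, with a median change of 0.75. In control day8, 20 of them rose and 1 fell from day 0, with a median of 0.67. Ndrg1, a gene induced by low oxygen, read 6.60, 6.65 and 7.54 at day 0 and 9.88, 10.17 and 9.71 with NP, a rise of 2.99 ± 0.28. Egln3, a prolyl hydroxylase of the oxygen sensor, rose by 2.52 ± 0.32. Against control day8 the whole 95% interval lay within 2-fold for 26 of the 32 genes, and 3 were higher and 1 lower with NP. DNA replication machinery showed 19 falls and 0 rises among 34 tested genes, with a median of -0.38. Control day8 gave 25 falls and 1 rise on this list, with a median of -0.55. Mcm2, a subunit of the replicative helicase, fell by 0.73 (change -0.73 ± 0.14). Cholesterol and fatty acid synthesis showed 12 falls and 0 rises among 25 tested genes, among them Fasn, the fatty acid synthase, by 1.01 (change -1.01 ± 0.16) and Idi1, an isomerase of the sterol pathway, by 0.92 (change -0.92 ± 0.13). For cholesterol and fatty acid synthesis the count was 5 when only the 6 arrays of control day0 and NP were fitted. Control day8 gave 6 falls and 1 rise on this list.

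Counts for neural and macrophage markers are read against the 20.2% of all genes that rose and the 11.9% that fell. On the list of neural progenitors and neurons 3 of 20 tested genes rose and 4 fell, and these numbers are too small to set apart from those shares. Pax6, a factor of the neural tube and eye, read 6.03, 6.11 and 6.67 at day 0 and 5.41, 5.16 and 5.48 with NP, and its change of -0.92 ± 0.37 missed the threshold. Of 9 tested macrophage markers (16 listed), 2 rose and 1 fell. Csf1r, the macrophage receptor that trophoblast also expresses, rose by 3.01 ± 0.28, whereas Adgre1 read 4.56, 4.07 and 3.03 with NP and 3.87, 3.23 and 4.30 at day 0. Cd68, a further macrophage marker, rose as well, by 1.27 to 1.49 with 1 array left out, and this call held each time. It was also called higher than in control day8, but that call was lost in 5 of 6 fits with 1 array left out. The summed signal of these 9 genes was 300 to 362 at day 0 and 323 to 396 with NP. Of 15 tested Hox genes (30 listed), which pattern the body axis, 0 changed by limma, and 1 had an unadjusted p under 0.05. Of 18 tested estrogen-responsive genes (25 listed) 10 rose and 1 fell with NP, and control day8 had 10 rises and 1 fall, with the overlap of genes not counted.

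Few differences between NP day8 and BPA day8 passed the test at this number of arrays. By limma with Benjamini-Hochberg adjustment, 1 of 13067 genes (0.00765%) differed at an adjusted p under 0.05. It was Tgfb3, a TGF-beta ligand, which read 3.62, 3.89 and 3.60 with NP and 0.54, -0.13 and 1.27 with BPA. The BPA values lie under the background level, so the difference is at least 0.30. The 3 and 3 arrays did not overlap for 2215 genes (17%). For 16 of 18 naive pluripotency factors the whole 95% interval of NP minus BPA lay within 2-fold, but this held for only 4 of 23 serum protein genes. The doses of the agents are not stated, so these values are not a comparison at matched doses.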

How the data were processed

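RNA of 12 samples was measured on Affymetrix arrays, 3 in each of 4 groups, which were taken from the sample titles. The deposited values are log2 signals made with MAS5 by the authors, per the submitters' processing notes, and were used with no further normalization. After control probe sets were left out, probe sets in the top 60% by mean over the 12 arrays were kept (27023 of 45101). A gene low at day 0 could thus pass through its level in the day8 groups. A symbol was read from whichever of its kept probe sets had the greatest mean. Group means over all 12 arrays were fitted with limma 3.58.1 in R 4.3.3, with p-values adjusted by Benjamini-Hochberg over 13067 genes. The number of arrays limits the precision. The model was run on simulated data with independent normal noise and a small share of changed genes. Many more genes changed on these arrays, so that run does not measure how reliable the counts are.

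The members and gene lists were chosen with earlier results of these data known. Named genes are the 15 largest rises and falls past the threshold without overlap, up to 3 per list and direction, up to 2 per list that missed nearest to no change, the 10 largest differences from control day8 each way, and fixed markers. Foxa2, Hnf4a, Cubn, Epcam, Pou3f1, Stra8, Dazl, Sycp3, Tek, Flt1, Hbb-bh1, Bmp4, Tgfb3, Foxa1 and Nr2f2 fall outside this rule and were chosen after their values were seen. Alternatives were other pseudocounts, filters, scalings, probe set rules, variance models and arrays left out. Replicate numbers did not pair the samples, with correlations of deviations between same-numbered arrays of -0.01 to 0.081.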

Additional observations from a re-analysis of the deposited data

Results flagged for a closer look

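Among the genes named, 8 were called in opposite directions from day 0 with NP and without it. They were kept only if NP day8 and control day8 also differed past the threshold (limma, Benjamini-Hochberg adjustment), so this difference is no separate test of them. The difference was -5.15 for Postn, -4.96 for Col3a1, -4.07 for Lum, -3.87 for Adam12, 2.36 for Fgf5, 2.73 for Dazl, 2.65 for Stra8 and 2.03 for Pou3f1. The last 3 were chosen after their values were seen. The fall of Lum from day 0 with NP lost its call without control day0 array 1 or 2 or NP array 1 (adjusted p up to 0.0655), and the rise of Dazl without control day0 array 1 or 2 or NP array 2 (up to 0.0863). The changes from day 0 share the control day0 arrays.

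Probe sets without a single gene name were not used in the comparisons. Of 3730 such probe sets, 255 were higher and 236 lower in NP day8 than in control day0.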

How the results depend on the processing

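For genes changed, NP day8 against control day0 (main count 4197), a test against a 2-fold change called 351 genes. The other planned settings gave 3168 to 4771, values under the background level raised to it (added after seeing the data) gave 4395, and leaving out 1 array gave 3096 to 4048. For genes changed, control day8 against control day0, the 2-fold test called 1030 genes and leaving out 1 array gave 5515 to 5985. For genes changed, NP day8 against control day8 (main count 1852), no filter on low values gave 1182, fitting only those groups 645, the 2-fold test 41, and leaving out 1 array 802 to 1874, lowest without control day8 array 1. For genes changed, NP day8 against BPA day8 (main count 1), the count was 39 with a pseudocount of 64, 4 with no filter, 3 with the mean of probe sets or array weights, and 0 with a pseudocount of 16, 40% of probe sets kept, median centring, a trend and robust variance prior, only those groups, the replicate block, the 2-fold test or the background floor. Leaving out 1 array gave 0 to 3. With the replicate number as a block the counts were 3984, 6175 and 1551 for the other comparisons, in the order above, but the numbers did not pair the samples. Atp2a2 reversed against control day8, to -0.59 with the mean of probe sets. Median centring moved the median change of all genes between control day8 and control day0 from 0.12 to 0.00979. Levels near the background of 3.41 give only bounds.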

Other observations

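Several gene groups changed little or in both directions from day 0 with NP. Over all genes 20.2% rose and 11.9% fell. Of 34 tested oxidative phosphorylation genes 0 rose and 3 fell, with a median change of -0.04, and 1 of the oxidative phosphorylation genes fell without control day0 array 2 or 3 or NP array 1 or 2. Among 28 glutathione and NRF2 targets 6 rose and 9 fell. Gpx3, a secreted glutathione peroxidase, rose by 2.91 ± 0.14. Of 18 immediate early genes 2 rose and 9 fell (5 fell without control day0 array 3), among them Egr2, by 2.27 (change -2.27). Of 38 cyclins, kinases and inhibitors 8 rose (5 without control day0 array 1 or 2) and 6 fell, and Ccnd1, cyclin D1, fell by 1.72 (change -1.72 ± 0.17). Both counts of the cyclin list, and the rises of glutathione and NRF2 targets, lie near the shares of all genes.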
